A study of Mus musculus with 6 samples.

Results

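The 9 transcripts described here encode a selection of enzymes of NADPH supply and of the pentose phosphate pathway: G6pdx, Pgd, H6pd, Tkt, Taldo1, Idh1, Idh2, Nnt and Nadk. They were chosen by name for their function, and each is represented by its most abundant RefSeq row in the deposited table. All 9 were found among the 22466 RefSeq genes of that table, and each had a mean above the minimum for testing. The cells were primary brown adipocytes, fat cells grown from precursors of the interscapular brown fat depot and differentiated in the dish, from male 129SvEvS1 mice of 5 to 6 weeks. RNA of 3 cultures from wildtype mice (WT, replicates 10, 11 and 12) was compared with RNA of 3 cultures from UCP1(-/-) mice (Ucp1-KO, replicates 13, 14 and 15), to ask how loss of the thermogenic uncoupling protein changes the transcriptome. All cultures, WT included, had been exposed to insulin, triiodothyronine and the PPARγ agonist rosiglitazone during differentiation, and before that, for induction, also to the phosphodiesterase inhibitor isobutylmethylxanthine, indomethacin and the glucocorticoid dexamethasone. On day 7 the high-glucose medium was replaced by one with less glucose, and no adrenergic stimulus is named for the sequenced RNA. The submitters call the cultures independent, and whether several animals were pooled for a culture is not given in the sources used here.

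NADPH is the electron donor of fatty acid and sterol synthesis and of the glutathione and thioredoxin systems. In the cytosol it is made by the oxidative branch of the pentose phosphate pathway, by malic enzyme and by isocitrate dehydrogenase. The non-oxidative branch returns the resulting pentose phosphates to glycolysis. Mitochondria have isocitrate dehydrogenase and a transhydrogenase driven by the proton gradient, the same gradient that UCP1 dissipates as heat. NAD kinase makes the NADP that the NADPH-producing enzymes reduce.

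Abundance was given in RPKM, read numbers scaled by transcript length and sequencing depth, a scale on which transcripts of different length can be set side by side. The reads behind these values numbered between 14989612 and 17727659 per culture. As a check of genotype, Ucp1 had between 981 and 1775 RPKM in WT and between 307 and 409 RPKM in Ucp1-KO cultures, 28.4% of the WT mean. Its log2 fold change of -1.78 did not pass the adjustment (limma unadjusted p = 0.000157, adjusted p = 0.868), and the row does not separate deleted from remaining exons. The study's own DESeq2 comparison listed Ucp1 among its differential genes. The study attributes the RNA left in Ucp1-KO cells to a non-functional remnant that lacks exons, and it detected no UCP1 protein in them. All 9 brown adipocyte markers examined, among them Adipoq, Plin1 and Cidea, were abundant, with a summed level of 30653 to 32486 RPKM in WT and 31756 to 34569 RPKM in Ucp1-KO cultures. Most of this sum was Fabp4. Of the 9 log2 fold changes 8 were positive (median 0.14), against 49.6% of all transcripts tested, with Elovl3 at 196% and Cidea at 141% of the WT mean. Of these 9 markers, 0 had an unadjusted limma p under 0.05, against 5.54% of all. Other cell types left unequal traces. The summed level of 10 preadipocyte and stromal markers ran from 696 to 1624 RPKM in WT and from 602 to 975 RPKM in Ucp1-KO cultures, and that of 6 macrophage markers from 59.4 to 179 RPKM in WT and from 42.5 to 817 RPKM in Ucp1-KO cultures, the highest in Ucp1-KO replicate 14. All 9 stromal markers abundant enough to be tested had a negative log2 fold change (median -0.44), where 49.6% of all transcripts tested had a positive one. Of these 9 markers, 1 had an unadjusted limma p under 0.05, against 5.54% of all, 3.24% with a lower level in Ucp1-KO cells. The part of these cell types in the results on the 9 transcripts was not tested. The 5 endothelial markers summed to between 2.76 and 33.2 RPKM in WT and between 5.55 and 15.6 RPKM in Ucp1-KO cultures. The 5 skeletal muscle markers summed to between 3.34 and 8.37 RPKM in WT and to 19.4, 3.198 and 13.5 RPKM in Ucp1-KO replicates 13, 14 and 15. Among them the WT and Ucp1-KO means were 1.21 and 4.90 RPKM for Mylpf and 0.0770 and 1.15 RPKM for Tnnt3 (limma unadjusted p = 0.0388, adjusted p = 0.868), and Ckm lay between 0 and 0.166 RPKM. The 4 markers of cycling cells summed to 7.49 to 11.9 RPKM in WT and 10.4 to 30.6 RPKM in Ucp1-KO cultures, the highest in replicate 13. All 4 had a positive log2 fold change (median 0.66), against 49.6% of all transcripts tested, and 0 had an unadjusted limma p under 0.05. For Cdk1 all Ucp1-KO cultures lay above all WT cultures, as for 6.04% of all transcripts tested. In bulk RNA, fewer cells of a type and less RNA per cell cannot be told apart.

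Genotypes were compared with limma on log2(RPKM + 1) over all 16865 RefSeq transcripts averaging 0.5 RPKM or more, and a positive log2 fold change means a higher level in Ucp1-KO cells. Of the 9 transcripts, 0 passed an adjusted p of 0.05 by limma, against 0.00% of all transcripts tested. At an unadjusted limma p under 0.05 there were 2, G6pdx and Tkt, both higher in Ucp1-KO cells, where 5.54% of all transcripts tested met this criterion, 2.30% with a higher and 3.24% with a lower level in Ucp1-KO cells. With limma-voom on read numbers recovered from the RPKM values the counts were also 0 and 2. The median log2 fold change was 0.06 over the 9 transcripts and -0.00 over all transcripts tested, and 5 of the 9 were positive, against 49.6% of all. All log2 fold changes lay between -0.20 and 0.56. Exact permutation p-values, two-sided, start at 0.10 with groups of 3.

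**Figure D1:**
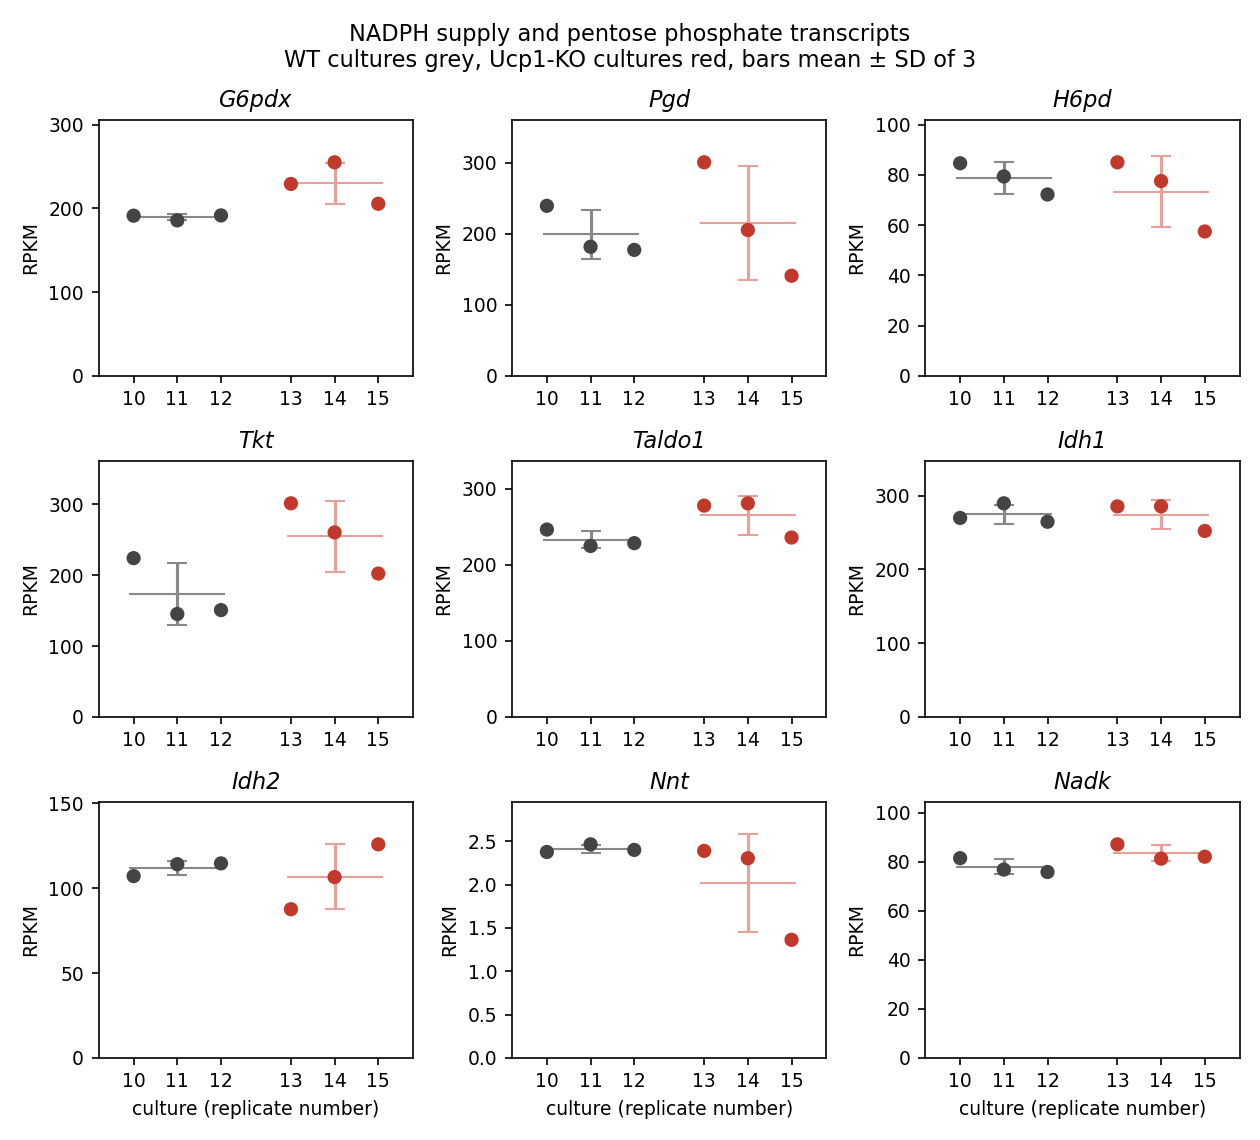
RPKM of each of the 9 transcripts (vertical axes, each from 0) in the 3 WT (grey) and 3 Ucp1-KO (red) cultures, named by replicate number on the horizontal axes, with bars for the mean and SD of 3 cultures. For G6pdx all red points lie above all grey points, and for the other 8 transcripts the genotypes overlap.

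The regulatory sequence upstream of the 3 transcripts with the highest Ucp1-KO to WT ratio (Tkt, G6pdx and Taldo1) is shown, since these genes had the highest estimates. Each stretch holds the 250 bases before a RefSeq transcript start (RefSeq promoter table, GRCm38.p6), written 5′ to 3′ on the strand of the gene. Capitals mark matches on either strand to the GC box GGGCGG, to the antioxidant response element core TGACNNNGC and to the E-box CACGTG. The stretch of G6pdx lies at chrX:74428881-74429130 (minus strand), that of Tkt at chr14:30548881-30549130 (plus strand) and that of Taldo1 at chr7:141391910-141392159 (plus strand).
G6pdx: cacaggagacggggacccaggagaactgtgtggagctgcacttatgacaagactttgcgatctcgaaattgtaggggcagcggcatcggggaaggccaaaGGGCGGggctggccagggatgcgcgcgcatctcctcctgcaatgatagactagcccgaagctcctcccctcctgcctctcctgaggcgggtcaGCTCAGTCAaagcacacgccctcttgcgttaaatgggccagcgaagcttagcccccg
Tkt: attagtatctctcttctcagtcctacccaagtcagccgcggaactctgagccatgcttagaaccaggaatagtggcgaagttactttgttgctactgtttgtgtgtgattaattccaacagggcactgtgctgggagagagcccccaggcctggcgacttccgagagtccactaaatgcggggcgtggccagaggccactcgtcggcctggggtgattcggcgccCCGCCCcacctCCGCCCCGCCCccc
Taldo1: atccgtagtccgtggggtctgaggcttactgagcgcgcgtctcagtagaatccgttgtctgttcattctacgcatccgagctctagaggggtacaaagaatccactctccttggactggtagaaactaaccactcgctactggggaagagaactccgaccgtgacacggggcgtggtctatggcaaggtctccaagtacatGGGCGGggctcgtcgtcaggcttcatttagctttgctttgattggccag
The table held 11 such stretches for 8 of the 9 genes, and none for Nnt. Only that of G6pdx held the antioxidant response element core, in reverse orientation from 57 bases before the start, against 10.2% of all 32851 stretches of this length. The E-box was found in 1 of the 11, a stretch of Nadk, against 6.02% of all, and the sterol regulatory element TCACNCCAC in 0 of the 11, against 1.05% of all. The GC box was found in 8 of the 11, against 32.7% of all, and in Tkt it occurred 3 times, with the last 2 matches sharing a base. A match of letters is a description and not a binding site.

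The oxidative branch of the pathway was represented by 3 dehydrogenases. G6pdx (NM_008062) encodes cytosolic glucose-6-phosphate dehydrogenase, which commits glucose-6-phosphate to the pathway and makes its first NADPH, and lies on chromosome X from 74409483 to 74428880 (GRCm38). Its level was 191, 186 and 192 RPKM in WT replicates 10, 11 and 12 and 229, 255 and 205 RPKM in Ucp1-KO replicates 13, 14 and 15. The WT cultures were nearly equal, and all Ucp1-KO cultures lay above them. The means were 189 ± 3.33 and 229.8 ± 24.8 RPKM (SD, n = 3), so that Ucp1-KO cells had 121% of the WT level (two-sided exact permutation p = 0.10). The log2 fold change was 0.27 (standard error 0.10, 95% confidence interval 0.02 to 0.52, limma unadjusted p = 0.0362, adjusted p = 0.868). Of all transcripts tested, 6.04% also had all Ucp1-KO above all WT cultures and 11.2% did not overlap in either direction. The highest value, in Ucp1-KO replicate 14, came from the culture with the highest macrophage marker level, and without this culture the log2 fold change was 0.19 (limma unadjusted p = 0.146). Leaving out Ucp1-KO replicate 15 gave 0.35 (limma unadjusted p = 0.0110). Leaving out any one of the other 4 cultures moved the estimate little (0.26 to 0.28), with unadjusted limma p-values between 0.0641 and 0.0960. The next highest macrophage marker sum, 179 RPKM, was that of WT replicate 11, the culture with the lowest G6pdx. The lowest sum, 42.5 RPKM, was that of Ucp1-KO replicate 15, where G6pdx (205 RPKM) lay above all WT cultures. The part of macrophages in the G6pdx difference was not tested.

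The level of G6pdx carried an uncertainty of annotation. G6pd2, an intronless copy of G6pdx on chromosome 5 (61808843 to 61810477) known from testis, was listed with 59.2 to 68.8 RPKM in WT and 67.2 to 83.7 RPKM in Ucp1-KO cultures. This was between 31.9% and 35.9% of the G6pdx level in every culture. Of the 2603 windows of 50 bases, the length of the reads, in the longest G6pdx transcript of GENCODE M21, 199 or 7.65% also occurred without mismatch in G6pd2 transcripts, and 10.7% in G6pd2 or in Ikbkg, the neighbour of G6pdx. Per the study's methods, uniquely identified reads were the ones assigned to transcripts. Windows that match with a mismatch were not examined, and the levels of G6pdx and G6pd2 are given as uncertain. Taldo1 shared 10.9% of its windows with the annotated gene Gm17823, and Pgd 1.14% with other genes, whereas Tkt, H6pd, Idh1, Idh2, Nnt and Nadk shared 0 windows with the transcripts of any other gene. The other deposited rows of G6pdx, which share reads, gave the same direction. In all 5 rows of the gene, over all annotations, every Ucp1-KO culture lay above every WT culture.

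Pgd (NM_001081274), on chromosome 4 (149149991 to 149166705), encodes the cytosolic 6-phosphogluconate dehydrogenase that makes the second NADPH of the branch. It had 239.5, 182 and 177 RPKM in the WT replicates and 301, 205 and 141 RPKM in the Ucp1-KO replicates. The highest and the lowest culture were both Ucp1-KO cultures, and the range of 2.13-fold between them was the widest of the 9 transcripts. Means were 199.6 ± 34.7 and 216 ± 80.4 RPKM (SD, n = 3), with p = 0.8 by exact permutation (two-sided). The log2 fold change of 0.06 had a 95% confidence interval of -0.59 to 0.71 (limma adjusted p = 0.979). The smallest read number of Pgd was 4700, a counting error of 1.46%, against a coefficient of variation of 17.4% among WT and 37.3% among Ucp1-KO cultures. Without Ucp1-KO replicate 13, the culture with the highest level of cycling cell markers, the estimate was -0.21, and the part of these cells was not tested.

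H6pd (NM_173371), also on chromosome 4 (149979474 to 150009023), encodes the hexose-6-phosphate dehydrogenase in the lumen of the endoplasmic reticulum, which supplies NADPH to 11β-hydroxysteroid dehydrogenase there. It had 84.6, 79.4 and 72.2 RPKM in WT and 85.0, 77.5 and 57.5 RPKM in Ucp1-KO cultures. The genotypes overlapped, and only Ucp1-KO replicate 15 lay below the WT range. Its log2 fold change was -0.12 (95% confidence interval -0.49 to 0.25, limma adjusted p = 0.923), and it was 0.05 without Ucp1-KO replicate 15. Hsd11b1, the gene of its partner enzyme, had 13.9, 9.65 and 9.37 RPKM in WT and 12.6, 13.5 and 11.9 RPKM in Ucp1-KO cultures (log2 fold change 0.21, limma adjusted p = 0.878).

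The ratio of cytosolic G6pdx to luminal H6pd was 2.26, 2.34 and 2.65 in WT and 2.69, 3.29 and 3.57 in Ucp1-KO cultures. All Ucp1-KO ratios lay above all WT ratios, though WT replicate 12 and Ucp1-KO replicate 13 were close. The difference of the mean log2 ratio was 0.39 (1.27 ± 0.12 in WT, 1.66 ± 0.21 in Ucp1-KO, SD, n = 3). By exact permutation, two-sided, p was 0.10, and 0.50 after Benjamini-Hochberg adjustment over the 5 ratios compared. The ratio of Pgd to G6pdx, consecutive enzymes of the branch, was 1.25, 0.980 and 0.926 in WT and 1.31, 0.806 and 0.686 in Ucp1-KO cultures, with overlap (two-sided exact permutation p = 0.5, adjusted 0.625).

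**Figure D2:**
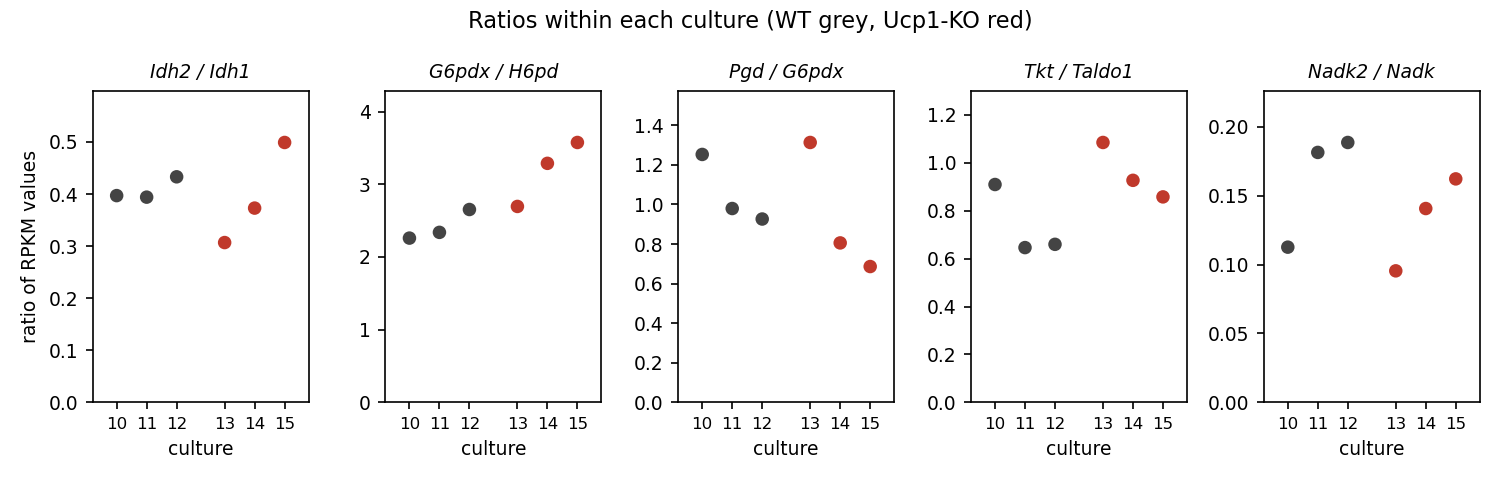
Ratio of the RPKM values of each named pair within a culture (vertical axes, each from 0) for the WT (grey) and Ucp1-KO (red) cultures, named by replicate number. The genotypes are separated for G6pdx to H6pd, where red points run from 2.69 to 3.57 and grey points from 2.26 to 2.65, and overlap for the other 4 ratios.

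In the non-oxidative branch, Tkt had the largest log2 fold change of the 9. Tkt (NM_009388) encodes transketolase, which exchanges carbon units between pentose phosphates and glycolytic sugars, and lies on chromosome 14 from 30549131 to 30574724. It had 224, 145 and 151 RPKM in WT and 302, 260.4 and 202 RPKM in Ucp1-KO cultures. A single WT culture, replicate 10, reached into the Ucp1-KO range, where it lay above replicate 15. The means were 173 ± 44.0 and 255 ± 49.8 RPKM (SD, n = 3), with Ucp1-KO cells at 147% of the WT level (two-sided exact permutation p = 0.2). The log2 fold change was 0.56 (standard error 0.21, 95% confidence interval 0.05 to 1.07, limma unadjusted p = 0.0346, adjusted p = 0.868). Leaving out WT replicate 10 gave 0.76 (limma, unadjusted p = 0.00601 and adjusted p = 0.393), leaving out Ucp1-KO replicate 15 gave 0.72 (unadjusted p = 0.0143), and leaving out Ucp1-KO replicate 13 gave 0.43. Without Ucp1-KO replicate 13 or any one of the other 3 cultures the unadjusted limma p was above 0.05. All 8 deposited rows of Tkt had a higher mean in Ucp1-KO cells. With median-of-ratios scaling the unadjusted limma p was 0.0508.

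Taldo1 (NM_011528) encodes transaldolase, the partner of transketolase in this branch, on chromosome 7 (141392160 to 141402976). It had 246, 225 and 228 RPKM in WT and 278, 281 and 236 RPKM in Ucp1-KO cultures. As for Tkt, the lowest Ucp1-KO culture, replicate 15, lay below WT replicate 10 and above the other WT cultures. The log2 fold change was 0.18 (standard error 0.11, 95% confidence interval -0.07 to 0.43, limma adjusted p = 0.876, two-sided exact permutation p = 0.2). Without Ucp1-KO replicate 15 it was 0.26 (limma unadjusted p = 0.0341). The ratio of Tkt to Taldo1 was 0.910, 0.646 and 0.660 in WT and 1.09, 0.927 and 0.858 in Ucp1-KO cultures (two-sided exact permutation p = 0.2, adjusted 0.50).

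The isocitrate dehydrogenases had estimates near 0. Idh1 (NM_010497), on chromosome 1 (65158616 to 65186479), encodes the cytosolic and peroxisomal enzyme and was the most abundant of the 9, with 269.9, 289.8 and 265 RPKM in WT and 286, 286 and 252 RPKM in Ucp1-KO cultures. The highest culture exceeded the lowest by a factor of 1.15. Its log2 fold change was -0.00 with a 95% confidence interval of -0.23 to 0.23 (limma adjusted p = 0.997, two-sided exact permutation p = 1.0). Idh2 (NM_173011), on chromosome 7 (80094845 to 80118608), encodes the mitochondrial enzyme and had 107, 114 and 115 RPKM in WT and 87.6, 107 and 126 RPKM in Ucp1-KO cultures. Both the lowest and the highest value belonged to Ucp1-KO cultures, replicates 13 and 15. For Idh2 the log2 fold change was -0.08 (95% confidence interval -0.41 to 0.25, limma adjusted p = 0.938), and 0.05 without Ucp1-KO replicate 13. The ratio of Idh2 to Idh1 was 0.397, 0.394 and 0.433 in WT and 0.307, 0.373 and 0.499 in Ucp1-KO cultures, so that the WT ratios fell inside the Ucp1-KO range (two-sided exact permutation p = 0.7, adjusted 0.70).

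Nnt encodes the transhydrogenase of the inner mitochondrial membrane, on chromosome 13 (119335527 to 119409257). It stood far below the other members, with 2.38, 2.46 and 2.40 RPKM in WT and 2.39, 2.30 and 1.36 RPKM in Ucp1-KO cultures. These values rested on 143, 145 and 150 reads in WT and on 136, 140 and 72 reads in Ucp1-KO cultures, all more than the floor of 3 reads. Ucp1-KO replicate 15 was the lowest culture, and the other 5 were nearly equal. Its log2 fold change came to -0.20 (95% confidence interval -0.58 to 0.18, limma adjusted p = 0.889) and -0.03 without Ucp1-KO replicate 15. By mean level Nnt held place 9763 of the 22466 RefSeq genes, whereas the other members held places between 159 and 709. Its single RefSeq row carries an accession for non-coding transcripts (NR_003544), and the highest value in any of its 12 rows of all annotations was 2.67 RPKM. The reference genome comes from C57BL/6J, a strain known to lack several exons of Nnt, and the labelled strain here was another. How this bears on the reads assigned to Nnt was not tested.

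Nadk (NM_138671), on chromosome 4 (155562381 to 155591001), encodes the cytosolic NAD kinase. It had 81.5, 76.8 and 75.8 RPKM in WT and 87.1, 81.3 and 82.1 RPKM in Ucp1-KO cultures. The Ucp1-KO mean was 107% of the WT mean, and the overlap came from WT replicate 10, which lay just above Ucp1-KO replicate 14. Its estimated log2 fold change was 0.10 (standard error 0.08, 95% confidence interval -0.10 to 0.29, limma adjusted p = 0.889, two-sided exact permutation p = 0.2). Nadk2, the mitochondrial NAD kinase, had 9.17, 13.9 and 14.3 RPKM in WT and 8.31, 11.4 and 13.3 RPKM in Ucp1-KO cultures. The ratio of Nadk2 to Nadk was 0.113, 0.181 and 0.189 in WT and 0.0954, 0.141 and 0.162 in Ucp1-KO cultures, with overlap (two-sided exact permutation p = 0.5, adjusted 0.625).

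**Figure D3:**
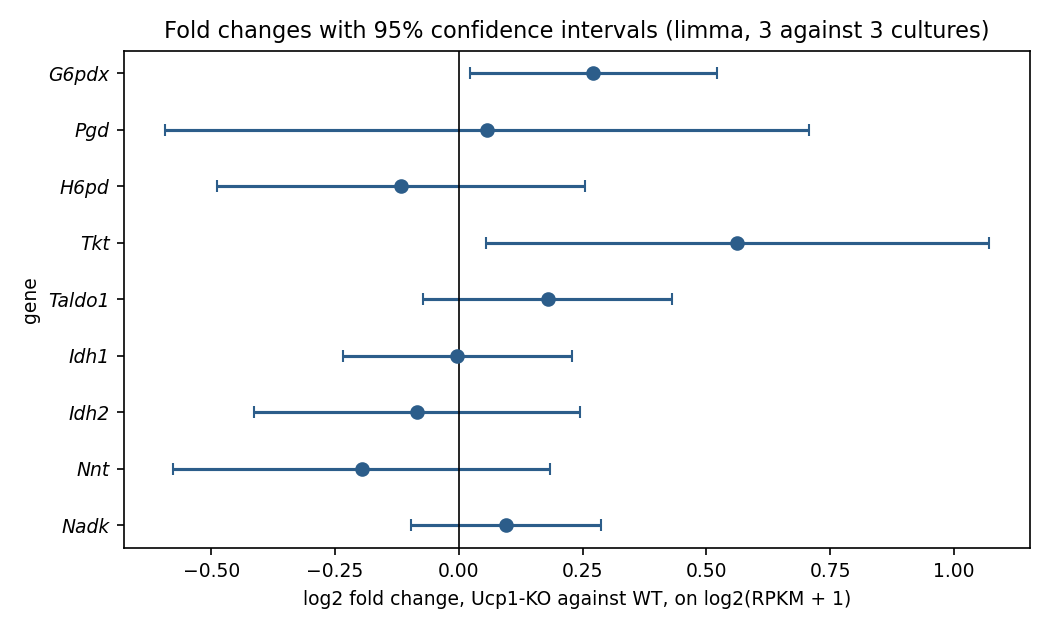
Log2 fold change between Ucp1-KO and WT cells on log2(RPKM + 1) (horizontal axis) for each of the 9 genes (vertical axis), with points for the estimate and bars for the 95% confidence interval from limma. The intervals of G6pdx (0.02 to 0.52) and Tkt (0.05 to 1.07) lie above 0 before adjustment, and the other 7 include 0.

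Ordered by the mean RPKM of all 6 cultures, a per-length level, the members ran from Idh1 (275 RPKM) over Taldo1 (249 RPKM), Tkt (214 RPKM), G6pdx (209.6 RPKM), Pgd (208 RPKM), Idh2 (109 RPKM), Nadk (80.7 RPKM) and H6pd (76.0 RPKM) to Nnt (2.22 RPKM). Idh1 exceeded Taldo1 in 6 of 6 cultures and Taldo1 exceeded Tkt in 5 of 6, although their ranges overlapped. Tkt, G6pdx and Pgd were not separated, with Tkt above G6pdx in 3 and G6pdx above Pgd in 4 of the 6 cultures. Nadk and H6pd changed places in the same way, with Nadk higher in 4 of 6. The steps from Pgd to Idh2, from Idh2 to Nadk and from H6pd to Nnt were free of overlap. The 9 transcripts together had 1447, 1300 and 1278 RPKM in WT and 1657, 1555 and 1304 RPKM in Ucp1-KO cultures. Of this sum, the oxidative enzymes made up 35.6%, 34.4% and 34.5% in WT and 37.1%, 34.6% and 31.0% in Ucp1-KO cultures, with overlap. The isocitrate dehydrogenases made up 26.1%, 31.1% and 29.7% in WT and 22.5%, 25.2% and 29.01% in Ucp1-KO cultures, also with overlap. Tkt and Taldo1 together made up 32.5%, 28.5% and 29.7% in WT and 35.0%, 34.8% and 33.6% in Ucp1-KO cultures, without overlap, and these shares were not tested. Nnt and Nadk made up the rest.

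The members also differed between cultures of 1 genotype. Within WT, Pgd and Tkt were higher in replicate 10 than in replicates 11 and 12, and within Ucp1-KO they were highest in replicate 13. Idh2 was lowest in Ucp1-KO replicate 13, where Pgd and Tkt were highest. Me1, the cytosolic malic enzyme, had 205, 147 and 152 RPKM in WT and 266, 206 and 135 RPKM in Ucp1-KO cultures. Fasn, the fatty acid synthase that spends NADPH, had 732, 434 and 466 RPKM in WT and 1118, 718 and 297 RPKM in Ucp1-KO cultures. Mlxipl, the gene of the glucose-responsive transcription factor ChREBP, had 34.8, 11.7 and 15.3 RPKM in WT and 51.4, 19.4 and 22.2 RPKM in Ucp1-KO cultures. WT replicate 10 and Ucp1-KO replicate 13 were the 2 highest cultures for 2 of the 9 members (Pgd and H6pd) and for 12 of 50 other genes of NADPH supply and use, against 10.5% of all transcripts tested. This arrangement was noticed after the values were seen.

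**Figure D4:**
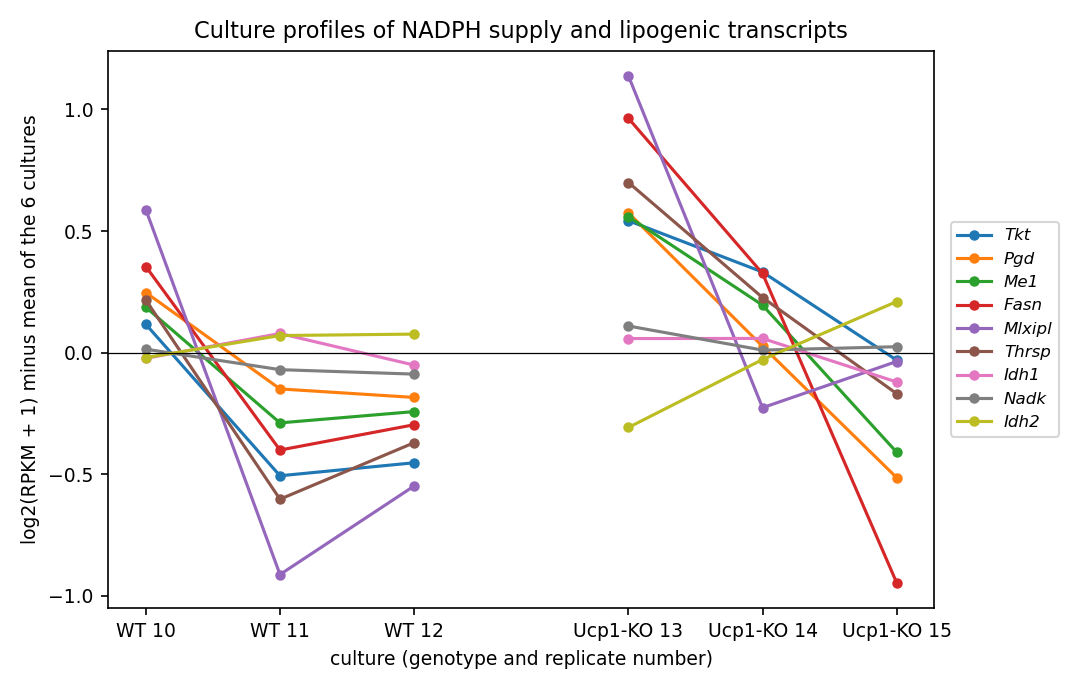
Log2(RPKM + 1) minus the mean of the 6 cultures (vertical axis) for 9 genes in each culture (horizontal axis), with lines that only help to follow a gene within a genotype, since replicates have no order. Tkt, Pgd, Me1, Fasn, Mlxipl, Thrsp and Nadk peak in Ucp1-KO replicate 13, where Idh2 is lowest.

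By the SD of log2(RPKM + 1) over the 6 cultures, Tkt was the most variable of the 9 (0.42, against 0.38 for Pgd). The genes whose profile over the 6 cultures was nearest to it among 7511 genes of at least 5 RPKM were Orm1, Arhgef37, Ehhadh, Prlr and Thrsp. The root mean square difference of their centred log2 values from Tkt was between 0.07 and 0.12, the measure by which they were picked. Thrsp, a gene of lipogenic tissues, had 1178, 667 and 784 RPKM in WT and 1647, 1187 and 902 RPKM in Ucp1-KO cultures. Ehhadh, which encodes a peroxisomal enzyme of fatty acid oxidation, had 46.9, 32.1 and 32.3 RPKM in WT and 68.9, 50.3 and 39.0 RPKM in Ucp1-KO cultures. Orm1, an acute-phase glycoprotein gene, had 30.9, 18.6 and 17.6 RPKM in WT and 42.1, 35.2 and 26.9 RPKM in Ucp1-KO cultures, with WT replicate 10 again inside the Ucp1-KO range.

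A further 52 genes of NADPH supply and use were listed by function, and 50 were abundant enough to be tested. Of these, 0 passed an adjusted p of 0.05 by limma. At an unadjusted limma p under 0.05 there was 1 higher and 1 lower in Ucp1-KO cells, against 2.30% and 3.24% of all transcripts tested, and 2 genes had all Ucp1-KO above and 2 all Ucp1-KO below all WT cultures, against 6.04% and 5.15%. Their median log2 fold change was 0.01, with 26 positive and 24 negative values.

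Among the other pentose phosphate genes, 9 of 11 were tested, 8 of which had a positive log2 fold change (median 0.17), against 49.6% of all transcripts tested. G6pd2, whose level is uncertain, was among the 8. The transketolase-like genes Tktl1 and Tktl2 had at most 0.0251 RPKM. Tigar, a fructose bisphosphatase gene whose product diverts sugar phosphate into the pathway, had 9.11, 6.79 and 7.95 RPKM in WT and 10.4, 10.9 and 9.72 RPKM in Ucp1-KO cultures. All Ucp1-KO cultures lay above all WT cultures (log2 fold change 0.35, standard error 0.12, limma unadjusted p = 0.0234, adjusted p = 0.868). Pgls, the lactonase between G6pdx and Pgd, had 83.6 to 89.7 RPKM in WT and 81.4 to 109 RPKM in Ucp1-KO cultures. Rpe and Rpia, the epimerase and isomerase of the pentose phosphates, had log2 fold changes of 0.18 and 0.17 (limma adjusted p = 0.876 and 0.933).

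Among the other NADPH producers, listed together with the NAD kinase gene Nadk2, 0 of 9 passed. Of the 9 log2 fold changes 7 were negative (median -0.12), where 49.6% of all transcripts tested had a positive one. The lowest estimates belonged to the folate enzyme genes Aldh1l2, Aldh1l1 and Mthfd2. Mthfd2 had 19.1, 35.1 and 33.4 RPKM in WT and 9.99, 23.1 and 32.1 RPKM in Ucp1-KO cultures, with a log2 fold change of -0.50 (standard error 0.42). Aldh1l2 had 8.95, 22.2 and 20.4 RPKM in WT and 8.91, 8.71 and 13.2 RPKM in Ucp1-KO cultures, with a log2 fold change of -0.62 (standard error 0.34, limma adjusted p = 0.871). In both, WT replicate 10 was the lowest WT culture and overlapped the Ucp1-KO cultures. Glud1, glutamate dehydrogenase, had 56.96 to 59.5 RPKM in WT and 47.6 to 56.95 RPKM in Ucp1-KO cultures, with ranges that almost touched (log2 fold change -0.12, limma adjusted p = 0.889).

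Of the 10 NADPH-using genes of lipid and sterol synthesis, Sqle was the only one past an unadjusted p of 0.05. Sqle encodes squalene epoxidase and had 20.8, 24.5 and 23.0 RPKM in WT and 17.7, 19.1 and 14.9 RPKM in Ucp1-KO cultures (log2 fold change -0.39, standard error 0.12, limma unadjusted p = 0.0134, adjusted p = 0.868). Ucp1-KO replicate 15 was the lowest culture for 9 of these 10 genes, against 4 of the 9 members and 26.6% of all transcripts tested. Of the 13 genes of redox and carbonyl reduction, 0 passed either criterion, with log2 fold changes between -0.55 for Nox4 and 0.21 for Hsd11b1. Gsr, glutathione reductase, had 17.1 to 20.6 RPKM in WT and 12.7 to 17.2 RPKM in Ucp1-KO cultures. Of the 9 regulators and partners, 0 passed either criterion. Nfe2l2, the gene of the antioxidant response factor NRF2, had 39.6 to 44.7 RPKM in WT and 34.9 to 42.4 RPKM in Ucp1-KO cultures (log2 fold change -0.09, limma adjusted p = 0.909). Srebf1, which encodes the lipogenic factor SREBP1, had 96.0 to 125 RPKM and 92.6 to 133 RPKM (log2 fold change 0.02, limma adjusted p = 0.990).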

How the data were processed

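Single-end RNA sequencing (50 bases) covered 6 cultures, 3 WT and 3 Ucp1-KO. Per the study's methods, reads were aligned to mouse genome build 38 and those with a unique assignment were counted on known transcripts with Genomatix tools. The authors deposited RPKM values for 168326 transcripts, without read counts. CASAVA and bcl2fastq are named in the submitters' processing notes. Of these rows, 28890 are RefSeq transcripts, and these were used. Groups and replicate numbers came from the sample titles. The members and gene lists were chosen with earlier results of these data known, and gene names were matched through RefSeq gene IDs.

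Genotypes were compared over the 16865 transcripts averaging 0.5 RPKM or more, using limma 3.58.1 (R 4.3.3, empirical Bayes with a trend on mean abundance, log2(RPKM + 1), no covariates, Benjamini-Hochberg adjustment). P-values measure the spread between cultures. Single values and ratios were compared by exact permutation tests in Python 3.11.15. Rows of 1 gene share reads and are not independent. Whole read numbers were recovered from RPKM for 16862 of the tested transcripts, with a tolerance of at most 0.05 reads, after finding the total of each culture from Ensembl transcripts of known length, of whose values 93.3% to 93.5% came out whole. Counting errors and the floor of 3 reads cover counting error only. In simulated data with 200 of 16862 transcripts changed 3-fold, limma called 173, of which 165 had been changed, and it called 0 when 0 were changed. Smaller changes were not simulated, and Tkt, the member with the largest log2 fold change, had 147% of the WT level. In the real data Ucp1, with a log2 fold change of -1.78, did not pass the adjustment (limma adjusted p = 0.868). Whether changes as small as those of the members could be called with these cultures was therefore not tested.

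By rule, all 9 members could be named, then any gene of the function lists, those past an unadjusted p of 0.05 first and then the most abundant, the cell type markers, Ucp1, and the 5 genes of at least 5 RPKM nearest to the most variable member by root mean square difference of centred log2 values. Glud1, Aldh1l2, Mthfd2, Mlxipl, Srebf1, Nfe2l2, Nox4, Gsr and the partners Hsd11b1, Nadk2, Pgls, Rpe and Rpia were picked from the lists after their values were seen. Alternatives were 0.1 RPKM added, no minimum, a minimum of 1 RPKM, 1 transcript per gene, all annotations, median-of-ratios scaling, limma-voom on recovered reads, sums over RefSeq rows and leaving out each culture.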

Additional observations from a re-analysis of the deposited data

How the results depend on the processing

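Of the 9 members and the listed pathway genes, 0 passed an adjusted p of 0.05 by limma under any alternative run. Counts at an unadjusted limma p under 0.05 ran from 0 to 3 of the 9 members and from 1 to 7 of the listed genes. The share of all transcripts tested moved from 1.87% (without WT replicate 11) to 10.4% (without WT replicate 10). The 3 members came without Ucp1-KO replicate 15, against 5.18% of all transcripts tested. Without WT replicate 10 there was 1 member, and without WT replicate 11 there were 0. Without Ucp1-KO replicate 13 there were 0 members and 7 listed genes, against 9.15%. Under every alternative run G6pdx kept its direction, with log2 fold changes from 0.19 to 0.35 on leaving out single cultures, as did Tkt (0.43 to 0.76), Taldo1 (0.14 to 0.26), Nadk (0.07 to 0.13) and Nnt (-0.29 to -0.03). The median of the 9 members ran from -0.020 without WT replicate 12 to 0.13 without WT replicate 10. Leaving out single cultures gave between 1 and 5 members whose genotypes did not overlap, with G6pdx among them each time. The 5 came without WT replicate 10 (G6pdx, Tkt, Taldo1, Nnt and Nadk), against 32.8% of all transcripts tested, 4 without Ucp1-KO replicate 15 (G6pdx, Tkt, Taldo1 and Idh2), against 20.5%, and 2 without Ucp1-KO replicate 13 or 14, against 27.8% and 17.9%. With all cultures this share was 11.2%, and without WT replicate 11 or 12 it was 14.3% or 16.7%.

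Directions reversed for estimates near 0. Leaving out single cultures, Pgd ran from -0.21 (without Ucp1-KO replicate 13) to 0.33 and was -0.0024 without WT replicate 11 and -0.020 without WT replicate 12, H6pd ran from -0.23 to 0.047, Idh1 from -0.033 to 0.057 and Idh2 from -0.21 to 0.049. Idh1 was 0.036 without WT replicate 11 and 0.0095 with median-of-ratios scaling. The difference of the log2 ratio of Idh2 to Idh1 ran from -0.27 to 0.082, and those of G6pdx to H6pd (0.30 to 0.51), Tkt to Taldo1 (0.29 to 0.54), Pgd to G6pdx (-0.49 to -0.02) and Nadk2 to Nadk (-0.51 to -0.05) kept their sign. The cause of these shifts was not tested. The labels do not say which WT and Ucp1-KO cultures, if any, were prepared together, so no paired analysis was run. Depth was lowest for Nnt, where 72 reads in 1 culture gave a counting error of 11.8%, against a coefficient of variation of 28.2% among Ucp1-KO cultures.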
